A study of Mus musculus with 24 samples.

Results

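The Hox genes of the mouse dorsal root ganglion, the cluster of sensory neurons and glia beside the spinal cord, were followed through 38 transcripts of 32 gene symbols in a table of 19571 transcripts and 14066 symbols. Members were chosen by name alone: every row whose symbol was a numbered Hox gene of cluster a, b, c or d, a Hox antisense RNA or a Hotair-type RNA. Of the 32 symbols, 28 were protein-coding Hox genes, and 4 were antisense RNAs of 6 transcripts, namely Hotairm1, Hoxb3os, Hoxb5os and Hoxd3os1. The only Hoxd11 transcript is annotated as a processed transcript, and ENSMUST00000153280 of Hoxa7 as subject to nonsense-mediated decay. Levels per gene therefore include transcripts not annotated as protein-coding. Cluster a on chromosome 6 held 12 of the transcripts, cluster b on chromosome 11 held 9, cluster c on chromosome 15 held 8 and cluster d on chromosome 2 held 9. Hox genes without a row in the table were not analysed here.

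The ganglia came from wild-type C57B/L6 mice 12 weeks old, all with a crushed sciatic nerve. Camptothecin, an inhibitor of DNA topoisomerase I, was injected into the peritoneum at 2 mg/kg, 30 minutes after the crush, and the other arm received vehicle. The camptothecin arm had 3 libraries at 18 h after injury, 4 at 24 h and 3 at 36 h. The vehicle arm had 3 libraries at each of these times. There was no uninjured group, and the labels name neither the spinal level of the ganglia nor whether animals were pooled. Separate animals are not stated for the samples either, so a p-value here reflects sample-to-sample spread that could be technical.

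Hox genes encode homeodomain transcription factors. Within each cluster the genes lie in the order in which they are switched on along the body axis, so low paralog numbers mark the hindbrain and neck and high numbers the lumbar and sacral trunk. Neurons keep part of this address after birth, and in sensory and motor neurons of the embryo Hox proteins help to set cell identity and target choice. Levels are given as CPM, the usual depth-scaled count with library totals scaled by TMM, and levels of different genes are compared only after division by the length of the spliced transcript (CPM per kb), with the transcripts of a gene summed.

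Library totals ran between 6.64 and 15.04 M (mega) counts in the camptothecin arm and between 3.62 and 8.32 M in the vehicle arm, and at each time every camptothecin library was deeper than every vehicle library, so depth and arm cannot be told apart. Hox transcripts held between 323 and 383 counts per M counts of library total with camptothecin and between 358 and 474 with vehicle. Unlike CPM, these values used raw totals without TMM scaling. All 10 sensory neuron marker genes were measured, and their summed level was between 5180 and 7280 CPM with camptothecin and between 4880 and 6750 CPM with vehicle. Of the 9 spinal cord markers 2 had values, Aqp4 and Slc5a7. Their sum was between 21.3 and 35.4 CPM with camptothecin and between 16.4 and 50.2 CPM with vehicle. The others, among them Olig2, Mnx1 and Chat, had no row, so their levels are unknown. Single neuron markers did change in the mean effect of camptothecin, Isl1 by -0.87 ± 0.12 on the log2 scale (edgeR adjusted p = 5.69e-05) and Tubb3 by 0.22 ± 0.06 (0.0287). Macrophage markers, 4 of 5 genes, summed to between 5.51 and 9.44 CPM with camptothecin and between 6.96 and 17.5 CPM with vehicle. The part of these markers in the Hox results was not tested. In whole ganglia, fewer cells of a type and less RNA per cell cannot be told apart.

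Over the libraries of both arms, the 7 highest Hox genes carried paralog numbers between 5 and 10. Other genes of these numbers lay near the bottom of the order, among them Hoxa10 with 0.822 CPM per kb and Hoxc5 with 0.985. In vehicle libraries alone, Hoxd1 was rank 7 with 9.44 ± 2.34 (SD) and Hoxb7 rank 8 with 9.32 ± 1.305. Averaged over all libraries of both arms, Hoxc10 had the highest level, 27.2 ± 4.62 CPM per kb (SD, n = 19 libraries), followed by Hoxa9 with 23.2 ± 13.9, Hoxb5 with 17.6 ± 2.32 and Hoxd8 with 17.4 ± 3.08. The place of Hoxa9 differed between arms. It was rank 4 in camptothecin libraries with 13.5 ± 2.66 (n = 10) and rank 1 in vehicle libraries with 33.9 ± 13.5 (n = 9). Hoxc10 had 26.1 ± 4.35 with camptothecin and 28.4 ± 4.88 with vehicle. Hoxc10, with its paralog Hoxd10, is known from the mouse embryo for setting the identity of lumbar motor neurons. Hoxd9 had 11.2 ± 2.26 CPM per kb, Hoxc8 10.1 ± 1.79 and Hoxb7 9.12 ± 1.63. At the low end stood Hoxd4 with 0.294 ± 0.206, Hoxc11 with 0.426 ± 0.370 and Hoxd3 with 0.587 ± 0.431. All 27 pairs of neighbours in this order over all libraries overlapped in their ranges over libraries. Hoxd8 over Hoxd9 was the 1 pair in which the first gene was higher in all 19 libraries, and Hoxc10 exceeded Hoxa9 in 14 of 19.

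Hoxd1 departed from the other low-numbered genes. Over all libraries it had 8.18 ± 2.42 CPM per kb, rank 8 of 28, while the other 8 genes numbered 1 to 4 lay between 0.294 and 3.19. In mice Hoxd1 is known as a gene of pain-sensing neurons that shapes their connections. It held between 7.44 and 19.96 CPM in camptothecin libraries, with a median of 12.3, and between 9.24 and 23.9 CPM in vehicle libraries, with a median of 17.7. Those ranges overlapped, and the mean effect of camptothecin over the 3 times was a log2 fold change of -0.40 ± 0.17 (SE, edgeR adjusted p = 0.16).

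Summed by position, the 9 genes numbered 9 to 11 had 65.9 ± 8.68 CPM per kb in camptothecin libraries (n = 10) and 89.5 ± 14.9 in vehicle libraries (n = 9), a difference that lay mostly in Hoxa9. Without Hoxa9 the sums were 52.3 ± 10.1 with camptothecin and 55.7 ± 5.63 with vehicle, and their ranges overlapped. The 10 genes numbered 5 to 8 summed to 70.0 ± 4.26 CPM per kb with camptothecin and 66.6 ± 6.43 with vehicle. The 9 genes numbered 1 to 4 summed to 17.7 ± 1.99 with camptothecin and 22.3 ± 3.65 with vehicle. By cluster, the 8 genes of cluster a summed to 25.5 ± 3.54 CPM per kb with camptothecin and 46.9 ± 13.7 with vehicle, and without Hoxa9 to 11.9 ± 1.29 and 12.97 ± 1.31. Clusters b, c and d summed to 35.9 ± 3.89, 45.6 ± 5.54 and 46.6 ± 8.06 with camptothecin, and to 35.2 ± 2.96, 49.5 ± 7.29 and 46.9 ± 5.02 with vehicle. These sums are descriptions and were given no test.

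**Figure D1:**
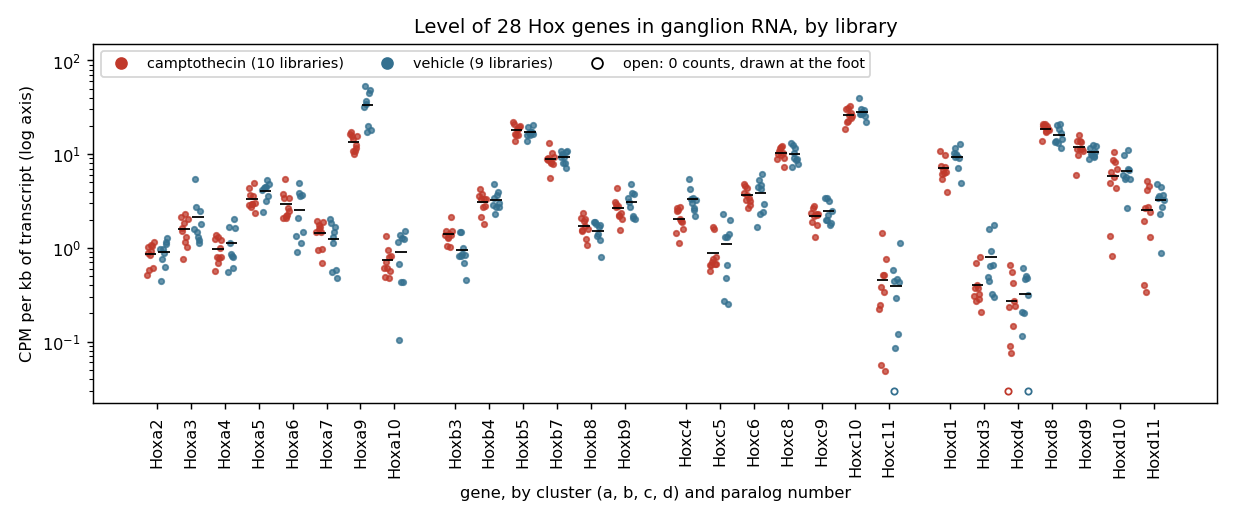
Level of each of the 28 Hox genes in CPM per kb of transcript (log axis), by cluster and paralog number. Points are libraries, camptothecin left of vehicle in each pair, bars are means, and open points are libraries with 0 counts. Hoxc10, Hoxa9, Hoxb5 and Hoxd8 stand highest, Hoxd1 stands above its low-numbered neighbours, and Hoxa9 is lower in camptothecin than in vehicle libraries.

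Between camptothecin and vehicle, 0 to 3 Hox transcripts passed in a comparison, and the share over all tested transcripts is given beside each count. Of the 38 transcripts, 35 passed the filter on low counts, and 1 of the 2 transcripts of Hoxa7 and both of Hoxa10 did not. Below, Hoxa9 without further mark stands for its transcript ENSMUST00000048680 and Hoxc4 for ENSMUST00000100164. Hoxa9 fell at 18 h and at 36 h, and Hoxb3 rose at 36 h, by edgeR's quasi-likelihood test over all 18606 tested transcripts with Benjamini-Hochberg adjustment at 0.05. At 18 h that was 1 of 35 Hox transcripts, against 1.58% of all tested (0.317% higher and 1.26% lower). At 24 h it was 0 of 35, against 0% of all, with 2 Hox transcripts at an unadjusted p under 0.05 (7.98% of all tested) and 0 called by DESeq2 or limma-voom. At 36 h it was 2 of 35, 1 in each direction, against 2.5% of all (0.188% higher and 2.32% lower). For the mean effect over the 3 times it was 3 of 35, Hoxa9, Hoxc4 and Hoxb3, against 10.3% of all (2.59% higher and 7.69% lower). The Hox shares rest on 1 to 3 calls and were not tested against those of all transcripts. In the authors' deposited table, 1 Hox transcript was under an adjusted p of 0.05 at 18 h, 0 at 24 h and 2 at 36 h, among 363, 0 and 405 transcripts in all.

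The median change of the Hox transcripts was small at each time, while single transcripts ranged more widely. On the log2 scale they lay between -1.37 and 1.08 at 18 h, -1.11 and 1.06 at 24 h, and -1.60 and 1.37 at 36 h. The median log2 fold change of the 35 was -0.13 at 18 h, 0.03 at 24 h and -0.20 at 36 h, and that of all tested transcripts was -0.02, 0.01 and -0.02. At 18 h 10 of the 35 were positive, against 48.3% of all. At 24 h it was 18 of 35, against 50.9%, and at 36 h 14 of 35, against 48.4%. The median GC content of the 35 was 52.8%, against 48.2% for all tested with a known sequence. With a GC offset per library 6 of 35 were positive at 18 h, 15 of 35 at 24 h and 9 of 35 at 36 h. By groups of libraries that did not overlap in CPM, 1 Hox transcript was higher (background 8.07%) and 5 were lower (background 11%) with camptothecin at 18 h. At 24 h 2 were higher (3.83%) and 2 lower (5.2%), and at 36 h 2 were higher (9.6%) and 2 lower (8.7%).

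**Figure D2:**
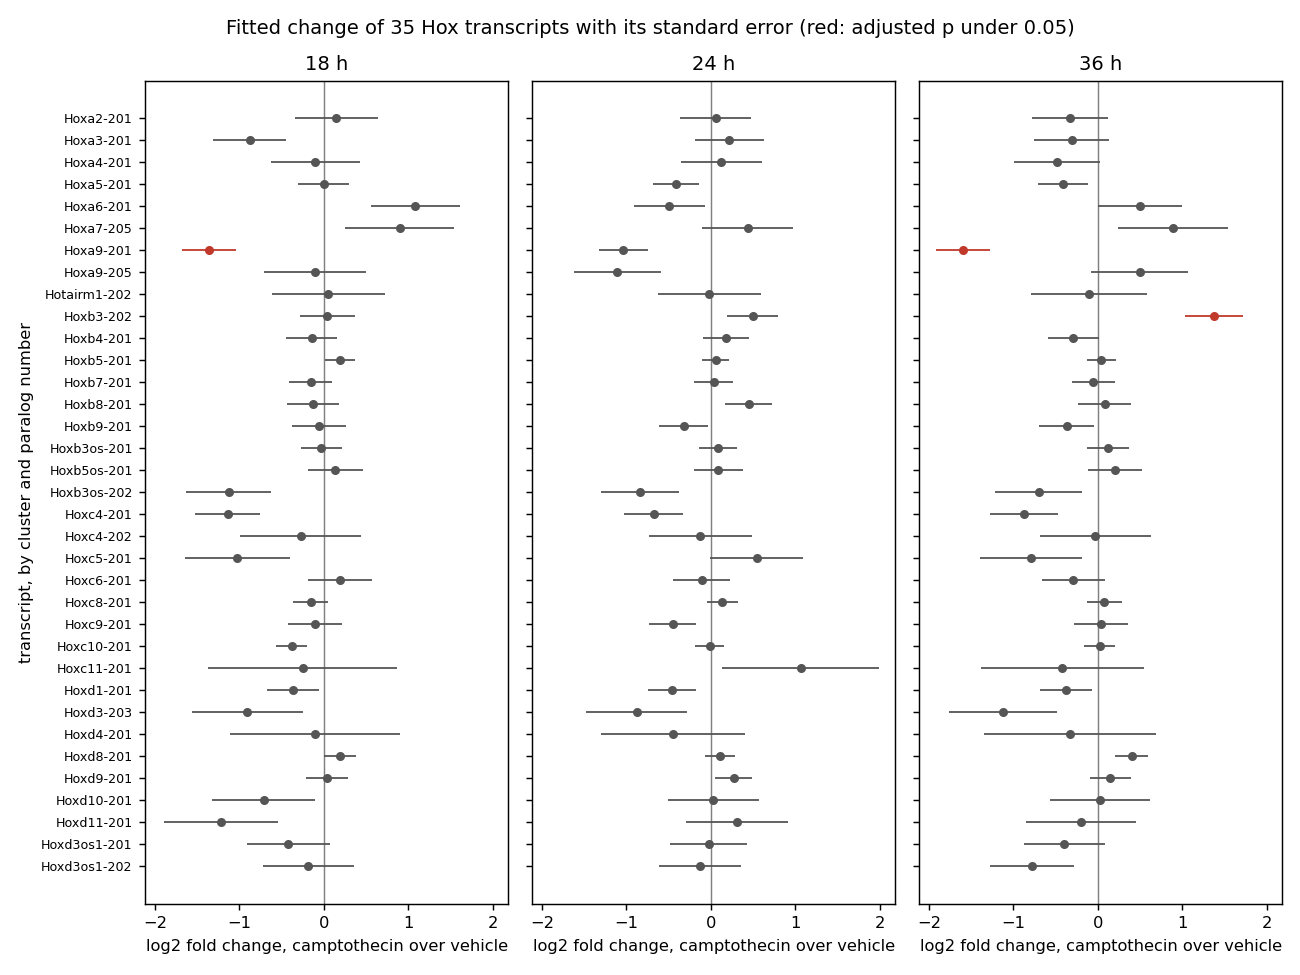
Fitted log2 fold change of camptothecin over vehicle with its standard error for the 35 tested Hox transcripts at 18, 24 and 36 h. Red marks an adjusted p under 0.05. Hoxa9 lies at -1.37, -1.04 and -1.60, Hoxb3 moves out to 1.37 at 36 h, and most transcripts sit within 1 unit of 0.

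The transcript ENSMUST00000048680 is the main coding one of Hoxa9, a gene known for patterning the posterior trunk and for its part in blood stem cells. It lies at chr6:52223100-52227370 on the minus strand (mm10) with 2 exons. At 18 h it had 50.7, 51.6 and 47.1 CPM in camptothecin libraries, against 97.8, 173 and 114 CPM in vehicle libraries. At 24 h it had 46.0, 32.5, 29.1 and 31.3 CPM with camptothecin, against 107, 48.4 and 58.4 CPM with vehicle. At 36 h it had 36.5, 31.5 and 46.0 CPM with camptothecin, against 141, 155 and 52.3 CPM with vehicle. At each time the highest camptothecin library lay below the lowest vehicle library, narrowly so at 24 h and at 36 h, and the vehicle libraries were the more scattered. The log2 fold change was -1.37 ± 0.32 (SE) at 18 h (edgeR adjusted p = 0.0367), -1.04 ± 0.29 at 24 h (adjusted p = 0.284) and -1.60 ± 0.32 at 36 h (adjusted p = 0.0102). The mean over the 3 times was -1.33 ± 0.18 (adjusted p = 6.77e-05). The effect at 36 h minus that at 18 h was -0.23 ± 0.45 (adjusted p = 0.989). The call at 18 h was lost with limma-voom (adjusted p = 0.0544), with a GC offset (0.0675), and without vehicle 18 h replicate 1 or 3, any camptothecin 18 h library or camptothecin 24 h replicate 3 (0.0515 to 0.163). That at 36 h was lost without vehicle 36 h replicate 2 or 3 or camptothecin 36 h replicate 1 (0.0684 to 0.0915). In the authors' deposited table its log2 change was -1.10 at 18 h (adjusted p = 0.0428), -0.76 at 24 h (0.495) and -1.22 at 36 h (0.0199).

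The raw counts of Hoxa9 did not follow library depth. They lay between 320 and 515 in camptothecin libraries and between 323 and 654 in vehicle libraries, although library totals ran between 3.62 and 15.04 M counts. Hoxb5, the most steady Hox transcript, had between 204 and 461 counts in camptothecin libraries and between 89 and 251 in vehicle libraries, close to a fixed share of the total. Within the camptothecin arm, log2 CPM of Hoxa9 against log2 library total gave Pearson r = -0.695 (permutation p = 0.0238, 0.0952 adjusted over 8 relations) and Spearman rho = -0.564 (permutation p = 0.0965, adjusted 0.386, n = 10). Within the vehicle arm, r was -0.787 (exact permutation p = 0.0149, adjusted 0.0952) and rho was -0.650 (exact permutation p = 0.0666, adjusted 0.386, n = 9). Without the 2 libraries farthest in depth, r was -0.630 with camptothecin and -0.569 with vehicle. The points share the library total, which is also the divisor of CPM. Hoxb5 had r = -0.144 with camptothecin (permutation p = 0.693) and r = -0.132 with vehicle (exact permutation p = 0.732). With log2 library total as a covariate the change in Hoxa9 was -0.51 at 18 h and -0.58 at 36 h and no Hox transcript passed the test. Nor did any other transcript at 18, 24 or 36 h or in the mean effect.

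**Figure D3:**
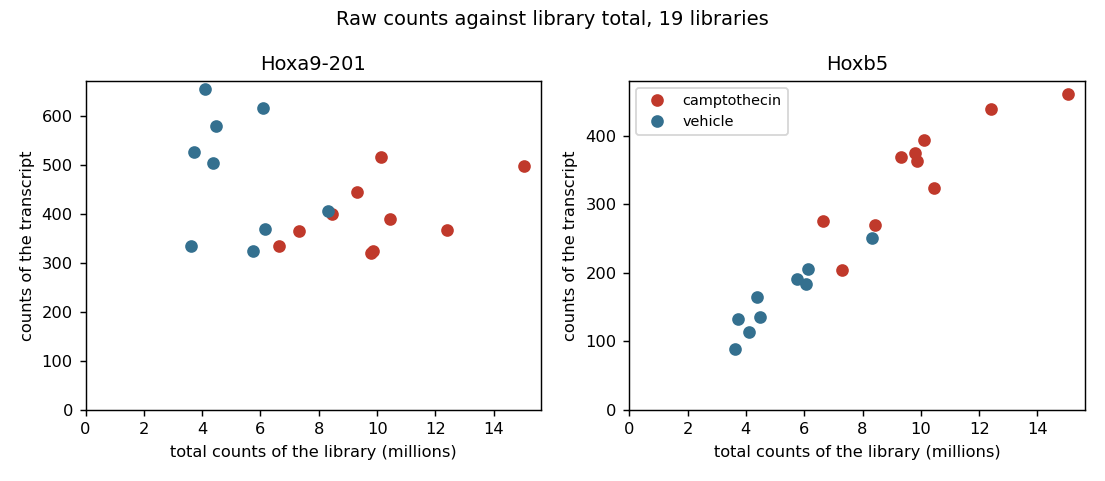
Raw counts of Hoxa9 (left) and Hoxb5 (right) against the total counts of each of the 19 libraries. Hoxa9 stays between 320 and 654 counts at every depth, while Hoxb5 climbs with depth to 461 counts.

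The other Hoxa9 transcript, ENSMUST00000174115, is annotated as a retained intron and lies 876 bases from the first. It gave 5.99% of all Hoxa9 counts in camptothecin libraries and 3.36% in vehicle libraries. Its camptothecin libraries at 24 h, 0.692, 1.83, 2.30 and 2.32 CPM, lay below its vehicle libraries, 2.44, 4.78 and 4.43 CPM. Its change at 24 h was -1.11 ± 0.52 (edgeR adjusted p = 0.601), and its mean effect was -0.24 ± 0.33 (adjusted p = 0.713). With transcripts summed per gene, Hoxa9 changed by -1.33 ± 0.28 at 18 h (adjusted p = 0.0176) and by -1.51 ± 0.29 at 36 h (adjusted p = 0.00389).

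The window around the start of Hoxa9, 250 bases before it to 50 after, is shown because this is the Hox transcript with the largest change. It is chr6:52227321-52227620, minus strand, from RefSeq on GRCm38.p6, with searched motifs in capitals.
Hoxa9: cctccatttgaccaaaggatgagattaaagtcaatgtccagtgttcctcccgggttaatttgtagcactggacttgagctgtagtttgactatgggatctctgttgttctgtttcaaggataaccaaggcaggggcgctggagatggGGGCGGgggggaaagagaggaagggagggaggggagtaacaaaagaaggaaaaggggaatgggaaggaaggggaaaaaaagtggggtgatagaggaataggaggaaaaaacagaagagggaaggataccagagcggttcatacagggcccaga
The motifs, searched on both strands, were TATAAA (the TATA box), CCAAT (the CCAAT box), GGGCGG (the GC box), TGATTNAT (a paired Hox and Pbx site), TTTATG (a site type of caudal and posterior Hox proteins) and AGGTCA (a nuclear receptor half-site). No matches shared a base in the windows printed here. The Hoxa9 window held 1 GC box and no other match, and its GC content was 49.7%. Of the 32851 windows of the reference, 13.6% held TATAAA, 37.4% CCAAT, 35.7% GGGCGG, 3.22% TGATTNAT, 11.9% TTTATG and 16.3% AGGTCA. Of the 21 windows of 19 Hox symbols, 3 held TATAAA, 11 CCAAT, 8 GGGCGG, 2 TGATTNAT, 5 TTTATG and 7 AGGTCA. A match is a description of the letters only.

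Hoxb3, an anterior gene known for its part in hindbrain patterning, rose with camptothecin at 36 h. It lies at chr11:96323326-96347930 on the plus strand (mm10). At 36 h it had 6.74, 4.33 and 4.86 CPM with camptothecin (72, 44 and 47 counts), against 2.20, 2.65 and 1.46 CPM with vehicle (9 counts in each library). The groups did not overlap at 36 h. At 24 h it had 4.04, 4.18, 4.52 and 3.29 CPM with camptothecin, against 2.62, 2.75 and 3.16 CPM with vehicle, and the groups did not overlap there either. At 18 h it had 4.39, 4.81 and 3.35 CPM with camptothecin, against 2.63, 4.76 and 4.75 CPM with vehicle, and the groups overlapped. The log2 fold change was 1.37 ± 0.34 (SE) at 36 h (edgeR adjusted p = 0.034), 0.49 ± 0.30 at 24 h (adjusted p = 0.754) and 0.04 ± 0.33 at 18 h (adjusted p = 0.981). Its mean effect was 0.64 ± 0.19 (adjusted p = 0.0319). That call was lost with a GC offset (0.50, adjusted p = 0.126), with library total as a covariate (0.49, 0.997), with both libraries lowest in Hoxd10 and Hoxd11 left out (0.63, 0.0723), and without vehicle 18 h replicate 1, vehicle 24 h replicate 1 or 2, vehicle 36 h replicate 4, camptothecin 18 h replicate 2 or 3 or camptothecin 36 h replicate 1 (0.0532 to 0.0803).

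The difference in the Hoxb3 effect between 36 h and 18 h was 1.33 ± 0.47 (edgeR adjusted p = 0.986). Within the vehicle arm Hoxb3 was at 2.10 ± 0.602 CPM at 36 h and 4.05 ± 1.23 CPM at 18 h (SD, n = 3 each), a log2 change of -0.99 ± 0.36 (edgeR adjusted p = 0.233). Within the camptothecin arm it was at 5.31 ± 1.27 CPM at 36 h and 4.18 ± 0.749 CPM at 18 h, a change of 0.34 ± 0.30 (adjusted p = 0.743). The Hoxb3 call at 36 h was lost with a GC offset (1.21, adjusted p = 0.0945) and with limma-voom (adjusted p = 0.0768). It was also lost without vehicle 36 h replicate 2, 3 or 4 (adjusted p between 0.0922 and 0.117) and without camptothecin 36 h replicate 1 or 3 (0.188 and 0.0694).

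Hoxb3 shares 2250 of its 3190 bases with 1 transcript of the antisense RNA Hoxb3os on the other strand. The sources used here do not state that counting used strand, so reads of the pair cannot be told apart. The Hoxb3os transcript that overlaps it most, ENSMUST00000131275, had 11.4, 11.8 and 12.3 CPM with camptothecin at 36 h, against 10.0, 12.7 and 10.2 CPM with vehicle. These groups overlapped, with a change of 0.12 ± 0.25 (edgeR adjusted p = 0.86). For each Hoxb3 count at 36 h there were 1.69, 2.73 and 2.53 counts of this Hoxb3os transcript with camptothecin, against 4.56, 4.78 and 7 with vehicle.

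The other Hoxb3os transcript, ENSMUST00000147410 with 4 exons, shares 59 bases with Hoxb3. At 18 h it had 2.87, 3.10 and 2.19 CPM with camptothecin, against 3.80, 10.6 and 3.62 CPM with vehicle, with no overlap and 1 high vehicle library. Its mean effect was -0.89 ± 0.29 (edgeR adjusted p = 0.0507, DESeq2 called it). It held 16.2% of Hoxb3os counts in camptothecin libraries and 27.6% in vehicle libraries. The other antisense RNAs did not pass the test at any time. Hoxb5os held between 3.25 and 7.58 CPM with camptothecin and between 3.57 and 7.56 CPM with vehicle. Hotairm1, a myeloid-linked RNA beside the anterior end of cluster a, held between 0.461 and 2.32 CPM with camptothecin and between 0.488 and 2.26 CPM with vehicle. The 2 transcripts of Hoxd3os1 had mean effects of -0.28 ± 0.27 and -0.36 ± 0.29 (edgeR adjusted p = 0.583 and 0.496).

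Hoxc4 passed the test for the mean effect. It is the most anterior gene of its cluster, known from the cervical spinal cord, and this transcript lies at chr15:103034395-103036852 on the plus strand (mm10). At 18 h it had 2.27, 4.21 and 3.35 CPM with camptothecin, against 9.93, 6.88 and 5.20 CPM with vehicle. At 24 h it had 4.73, 1.44, 2.46 and 3.29 CPM with camptothecin, against 5.23, 4.90 and 3.95 CPM with vehicle. At 36 h it had 2.44, 1.97 and 1.96 CPM with camptothecin, against 3.17, 4.12 and 4.38 CPM with vehicle. The groups overlapped at 24 h and were apart at 18 h and 36 h. The log2 fold change was -1.14 ± 0.38 (SE) at 18 h (edgeR adjusted p = 0.139), -0.68 ± 0.35 at 24 h (adjusted p = 0.66) and -0.87 ± 0.40 at 36 h (adjusted p = 0.292). The mean effect was -0.90 ± 0.22 (adjusted p = 0.0101), and -0.38 with library total as a covariate (adjusted p = 0.997).

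Counts behind Hoxc4 were low, between 15 and 42 per camptothecin library and between 13 and 41 per vehicle library. Log2 CPM of Hoxc4 against log2 library total gave Pearson r = -0.440 with camptothecin (permutation p = 0.204, adjusted 0.544). With vehicle r was -0.335 (exact permutation p = 0.381, adjusted 0.708). This transcript shares 1536 bases with the other Hoxc4 transcript, ENSMUST00000165375, so the split of reads between them is uncertain. That transcript changed by -0.15 ± 0.38 in the mean effect (edgeR adjusted p = 0.865). Summed per gene, Hoxc4 changed by -0.70 ± 0.19 (adjusted p = 0.0142).

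The start of Hoxc4 is shown for comparison with that of Hoxa9, since both fell. The window is chr15:103034145-103034444, plus strand, from RefSeq on GRCm38.p6, with motifs in capitals.
Hoxc4: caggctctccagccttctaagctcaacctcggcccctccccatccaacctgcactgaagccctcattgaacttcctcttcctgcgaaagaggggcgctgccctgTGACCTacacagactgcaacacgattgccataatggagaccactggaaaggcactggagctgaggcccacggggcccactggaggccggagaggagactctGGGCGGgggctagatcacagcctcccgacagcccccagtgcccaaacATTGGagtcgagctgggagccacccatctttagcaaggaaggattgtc
It held 1 GC box, as the Hoxa9 window did, and in addition 1 CCAAT box and 1 nuclear receptor half-site, both on the opposite strand.

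**Figure D4:**
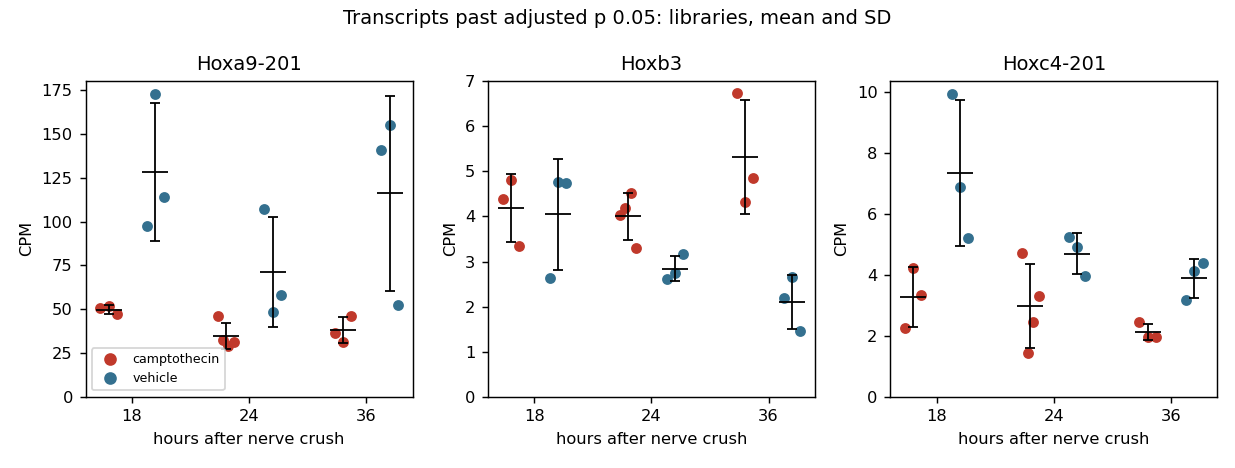
CPM of Hoxa9, Hoxb3 and Hoxc4 at 18, 24 and 36 h after nerve crush. Points are libraries, camptothecin left of vehicle, and bars are the mean and SD of 3 or 4 libraries. Hoxa9 is lower with camptothecin at each time, Hoxb3 is apart at 24 h and 36 h and overlaps at 18 h, and Hoxc4 overlaps at 24 h only.

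The most abundant transcripts of the other clusters showed no passing change. Hoxb5, the leading gene of cluster b, had 41.6, 39.4 and 26.3 CPM at 18 h with camptothecin, against 25.98, 30.2 and 37.3 CPM with vehicle. At 24 h it had 31.01, 30.1, 34.8 and 35.2 CPM with camptothecin, against 32.1, 30.02 and 32.6 CPM with vehicle. At 36 h it had 30.3, 36.8 and 38.1 CPM with camptothecin, against 32.9, 38.9 and 30.95 CPM with vehicle. The groups overlapped at each time, and the mean effect was 0.10 ± 0.10 (edgeR adjusted p = 0.6). Hoxc10 had 45.3 ± 11.2, 53.7 ± 8.78 and 49.5 ± 3.005 CPM with camptothecin at 18, 24 and 36 h (SD, n = 3, 4 and 3), and 59.4 ± 14.3, 54.3 ± 2.76 and 48.96 ± 7.34 CPM with vehicle (n = 3 each). Its mean effect was -0.13 ± 0.10 (edgeR adjusted p = 0.504). Hoxd8 had 48.1 ± 10.04, 50.03 ± 5.05 and 49.5 ± 2.39 CPM with camptothecin at those times, and 42.1 ± 10.2, 46.2 ± 10.5 and 37.6 ± 6.86 CPM with vehicle. At 36 h its camptothecin libraries all lay above its vehicle libraries, and its mean effect was 0.23 ± 0.11 (edgeR adjusted p = 0.195).

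Over time within an arm no Hox transcript passed. Between 36 h and 18 h with camptothecin it was 0 of 35, against 0.511% of all tested (0.36% higher and 0.15% lower), with 0 Hox transcripts at an unadjusted p under 0.05 (11.2% of all tested). The smallest p-values there belonged to Hoxb9 (-0.56 ± 0.31, edgeR adjusted p = 0.534), Hoxc4 (-0.63 ± 0.39, 0.59) and Hoxc6 (-0.49 ± 0.36, 0.669). Between 36 h and 18 h with vehicle it was 0 of 35, against 1.44% of all (1.01% higher and 0.43% lower), with 2 unadjusted (11.8% of all), Hoxb3 and Hoxc4 (-0.90 ± 0.40, edgeR adjusted p = 0.36), and Hoxa3 next (-0.84 ± 0.45, 0.49). The difference in effect between 36 h and 18 h gave 0 of 35, against 0.0107% of all, with Hoxb3 alone at an unadjusted p under 0.05 (4.95% of all). Hoxc10 (0.40 ± 0.26, edgeR adjusted p = 0.987) and Hoxd11 (1.01 ± 0.94, 0.989) followed. DESeq2 and limma-voom also called 0 Hox transcripts in these comparisons. They share libraries with the comparisons at 18 h and 36 h.

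The widest spread among libraries of the same group lay at the posterior end of cluster d. The within-group SD of log2 CPM was 1.11 for Hoxd11, 1.10 for Hoxc11, 1.00 for Hoxd10 and 1.00 for Hoxd4, against a median of 0.48 over the 35 Hox transcripts and 0.43 over all tested. Hoxc11 and Hoxd4 had few counts, at most 45 and 18 in a library. Hoxd10 reached 244 and Hoxd11 218. The steadiest were Hoxb5 with 0.21, Hoxc8 with 0.24 and Hoxc10 with 0.24.

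Hoxd10 and Hoxd11, neighbours 4907 bases apart, were low in the same libraries. In camptothecin 18 h replicate 2 Hoxd10 had 2.42 CPM and Hoxd11 1.36 CPM. In camptothecin 24 h replicate 1 Hoxd10 had 1.499 CPM and Hoxd11 1.15 CPM. In the other 17 libraries Hoxd10 lay between 4.90 and 20.1 CPM, with a median of 11.7, and Hoxd11 between 2.99 and 17.3 CPM, with a median of 10.9. Vehicle 24 h replicate 2 was lowest of these 17 for both genes. So the low libraries included 2 of the camptothecin arm and 1 of the vehicle arm, at 18 h and 24 h.

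As a share of the counts of Hoxd8, Hoxd9, Hoxd10 and Hoxd11, Hoxd10 and Hoxd11 made up 7.12% in camptothecin 18 h replicate 2 (95% Wilson interval 4.87% to 10.3%, 25 of 351 counts). The share was 3.47% in camptothecin 24 h replicate 1 (2.33% to 5.16%, 23 of 662) and 9.39% in vehicle 24 h replicate 2 (7.45% to 11.8%, 66 of 703). In the other 16 libraries it was between 16.8% and 34.1%. Intervals cover counting error only.

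Of the next genes of the cluster, neither Hoxd8 nor Hoxd9 fell below the range of the other 17 libraries in both. Hoxd8 had 36.6 CPM in camptothecin 18 h replicate 2 and 52.6 in camptothecin 24 h replicate 1, within the 30.5 to 55.9 CPM of the other 17. Hoxd9 had 12.7 CPM in the first, below the 18.98 to 34.5 CPM of the others, and 21.1 CPM in the second. Hoxc10 had 35.8 CPM in the first, below the others' 42.0 to 75.9 CPM, and 43.1 CPM in the second. Hoxb8 went the other way, with 5.44 and 6.23 CPM in these libraries, above the 2.11 to 5.31 CPM of the other 17. Hoxb7 (16.9 CPM) and Hoxa6 (4.73 CPM) were at their highest of all libraries in camptothecin 24 h replicate 1. The libraries and genes of this pattern were picked after the values were seen.

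Across the 19 libraries log2 CPM of Hoxd10 and Hoxd11 gave Pearson r = 0.917 (permutation p = 1e-05, the smallest that 100000 permutations can give, 5e-05 adjusted over 5 relations) and Spearman rho = 0.747 (permutation p = 0.00036, adjusted 0.0018). Without the 2 lowest libraries r was 0.727 (permutation p = 0.00107). Within the camptothecin arm r was 0.943 and within the vehicle arm 0.786. The pair was picked after its values in these same libraries were seen, and the permutations ignored arm and time. Its p-values therefore describe the pattern and are not a test of it. Hoxd10 with Hoxd9 gave r = 0.443 (permutation p = 0.0682, adjusted 0.0852), and without those 2 libraries r = -0.031, so that relation rests on them. Hoxd10 with Hoxc10 gave 0.453 (permutation p = 0.0568, adjusted 0.0852) and, without the 2 libraries, -0.019. Hoxd10 with Hoxb9 gave -0.483 (permutation p = 0.0365, adjusted 0.0852) and with Hoxd8 0.010 (permutation p = 0.968). Their Spearman values were 0.132, 0.279, -0.433 and 0.060 for Hoxd9, Hoxc10, Hoxb9 and Hoxd8 (permutation p = 0.594, 0.246, 0.0654 and 0.81).

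Camptothecin did not change Hoxd10 or Hoxd11 past the threshold. Their changes were -0.71 ± 0.61 and -1.22 ± 0.67 at 18 h (edgeR adjusted p = 0.671 and 0.435), 0.03 ± 0.54 and 0.31 ± 0.60 at 24 h (0.997 and 0.958), and 0.02 ± 0.59 and -0.20 ± 0.65 at 36 h (0.988 and 0.916). Without the 2 lowest libraries, both of the camptothecin arm, they were -0.31 and -0.78 at 18 h (edgeR adjusted p = 0.864 and 0.594) and 0.38 and 0.67 at 24 h (0.938 and 0.859). Hoxd10 and Hoxd11 had the lowest GC contents of the members, 46.5% and 42.4%. In the 2 lowest libraries the summed sensory neuron markers were 7070 and 6140 CPM, within the 4880 to 7280 CPM of the others, and Schwann cell markers were 2520 and 2400 CPM, within 1280 to 2620 CPM. Endothelial markers, 3 of 5 genes, were 44.5 and 58.8 CPM, the second above the 21.4 to 52.6 CPM of the others. The part of GC content and cell make-up in the pattern was not tested.

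**Figure D5:**
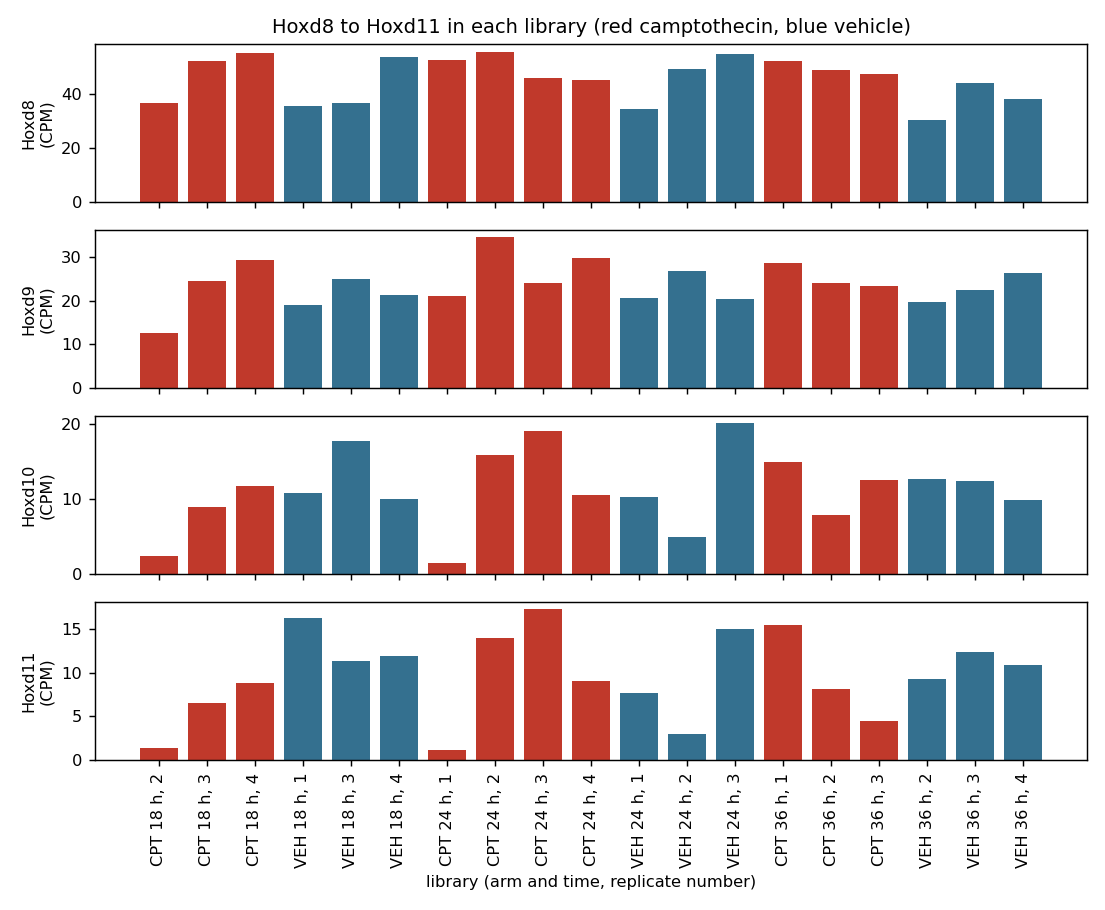
CPM of Hoxd8, Hoxd9, Hoxd10 and Hoxd11 in each of the 19 libraries (CPT, camptothecin, red; VEH, vehicle, blue; replicate number last). Hoxd10 and Hoxd11 drop together in CPT 18 h replicate 2, CPT 24 h replicate 1 and VEH 24 h replicate 2, while Hoxd8 stays between 30.5 and 55.9 CPM.

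The start windows of these neighbours are shown because their transcripts varied together. Both are on the plus strand of GRCm38.p6, from RefSeq, at chr2:74691641-74691940 for Hoxd10 and chr2:74679308-74679607 for Hoxd11, with the same motifs in capitals.
Hoxd10: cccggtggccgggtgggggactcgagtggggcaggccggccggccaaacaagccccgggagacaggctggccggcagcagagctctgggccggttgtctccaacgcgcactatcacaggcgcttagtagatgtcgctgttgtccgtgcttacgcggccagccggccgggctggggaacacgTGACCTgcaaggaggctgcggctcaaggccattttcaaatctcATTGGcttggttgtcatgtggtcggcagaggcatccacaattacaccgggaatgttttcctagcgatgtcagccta
Hoxd11: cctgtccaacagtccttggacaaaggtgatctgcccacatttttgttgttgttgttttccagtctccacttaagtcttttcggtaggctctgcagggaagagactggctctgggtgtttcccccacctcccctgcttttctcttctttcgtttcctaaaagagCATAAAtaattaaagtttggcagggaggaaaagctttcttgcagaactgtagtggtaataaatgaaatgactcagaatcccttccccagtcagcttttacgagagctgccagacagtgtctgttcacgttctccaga
The Hoxd10 window had a GC content of 62.7% and held 1 CCAAT box and 1 nuclear receptor half-site, both on the opposite strand. The Hoxd11 window had a GC content of 45.7% and held 1 caudal-type site on the opposite strand. They shared no searched motif.

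Among genes that act with or on Hox genes, no TALE transcript passed, and some transcripts of 3 other lists were lower with camptothecin. The lists were not tested against each other or against all transcripts. TALE homeodomain proteins such as Pbx and Meis bind DNA with Hox proteins. Of 11 TALE genes 5 had tested transcripts, 7 in all, and 0 passed in any comparison (10.3% of all tested for the mean effect). By unadjusted edgeR p under 0.05 it was 1 for the mean effect (23.6% of all tested). For vehicle at 36 h against 18 h it was also 1 (11.8% of all tested). DESeq2 called 1, for the mean effect, and limma-voom 0. Retinoic acid, through its receptors, switches on anterior Hox genes in the embryo. Of its 21 genes 12 were tested, with 20 transcripts, of which 3 were lower in the mean effect, all of the corepressor Ncor1 (background, lower, 7.69%). Ncor1 transcript ENSMUST00000127471 changed by -1.48 ± 0.36 at 18 h (edgeR adjusted p = 0.0431) and by -1.53 ± 0.36 at 36 h (adjusted p = 0.025). The 2 other Ncor1 transcripts changed by -0.91 ± 0.22 and -0.74 ± 0.20 in the mean effect. DESeq2 called 1 transcript of this list lower at 18 h, and 2 lower and 1 higher at 36 h. At both times limma-voom called 0. In the mean effect each of these methods called 3.

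Polycomb proteins hold Hox genes silent, and Trithorax proteins and H3K27 demethylases keep them open. Of 33 Polycomb genes 26 were tested, with 38 transcripts, of which 5 were lower and 0 higher in the mean effect (background, lower, 7.69% and higher 2.59%). Mtf2, a subunit that recruits the methylating complex, changed by -1.70 ± 0.42 at 18 h (edgeR adjusted p = 0.0438) and -1.78 ± 0.42 at 36 h (0.0235). Asxl2 changed by -2.33 ± 0.51 at 18 h (edgeR adjusted p = 0.0323), and Bmi1 by -1.07 ± 0.18 in the mean effect (0.000431). DESeq2 called 2 Polycomb transcripts lower at 18 h, 2 at 36 h and 5 in the mean effect. For the same comparisons limma-voom called 1, 0 and 4. Of 12 Trithorax and demethylase genes 8 were tested, with 12 transcripts, of which 3 were lower and 0 higher in the mean effect. Kdm6a, an H3K27 demethylase, changed by -1.87 ± 0.48 at 18 h and -2.31 ± 0.50 at 36 h (edgeR adjusted p = 0.0495 and 0.0154). Kmt2c, an H3K4 methyltransferase, changed by -1.28 ± 0.32 at 36 h (edgeR adjusted p = 0.034), and Kdm6b by -0.56 ± 0.11 in the mean effect (0.00191). DESeq2 called 2 transcripts of this list lower at 18 h, 3 at 36 h and 3 in the mean effect. For the same comparisons limma-voom called 0, 1 and 3. The DESeq2 and limma-voom counts of these lists are given without the share of all transcripts, so they only describe the lists. Each value named for a gene here is that of 1 transcript. The median log2 change in the mean effect was -0.08 for the Polycomb transcripts and -0.01 for the Trithorax and demethylase transcripts, against 0.01 over all tested. With log2 library total as a covariate, no transcript of these lists passed at any time or in the mean effect.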

How the data were processed

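Members and gene lists were chosen with earlier results of these data known. Per the file headers, the deposited table gives raw whole-number counts per Ensembl transcript and sample, log2-scale variance-stabilised values, which served only to check the arms, and the authors' log2 fold changes with p-values and adjusted p-values. The submitters' notes on processing name CASAVA 1.8.2, mm10 and limma. Aligner, counter, annotation and strand setting: not given in the sources used here. Columns of 19 of the 24 samples were used, and 5 samples were not analysed here. Column letters had no legend: B was taken as camptothecin because the deposited fold changes named camptothecin against vehicle equalled the mean of B minus the mean of A (largest difference 8.7e-14 at 18 h, 4.32 with letters exchanged). The labels' protocols name a Nugen Ovation cDNA kit and speak of IP or FT RNA, although the samples are whole ganglia. The 291 transcripts without a symbol held at most 0.568% of counts and stayed in the totals.

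Tests of the deposited counts used edgeR 4.0.16 under R 4.3.3: filterByExpr (min.count 10, min.total.count 15) kept 18606 transcripts and removed 965, TMM scaling, a quasi-likelihood fit of 6 group means with 13 residual degrees of freedom, and Benjamini-Hochberg adjustment over all tested. CPM used TMM-scaled totals. An SE is the log2 fold change divided by the root of F. Positions, lengths and GC contents came from GENCODE M21, matched for 97.8% of transcripts. Replicates differed by more than counting noise in every pair (lowest chi-square over its degrees of freedom 3.31). Named with full values were members past 0.05 in any comparison, the highest by mean CPM in each cluster, and the 3 smallest p-values where none passed. Other Hoxd genes, the second Hoxa9 transcript and the antisense RNAs were added after their values were seen. Alternatives were DESeq2 1.42.0, limma-voom (limma 3.58.1), other scaling, filter, GC, depth, replicate and gene-level settings. Correlation p-values came from permutations in Python 3.11.15. The fit was tested on simulated data.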

Additional observations from a re-analysis of the deposited data

Results flagged for a closer look

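In the only group of 4 libraries, camptothecin at 24 h, single libraries stood far from the other 3 for 2 of 38 transcripts. Hoxa6 had 4.73 CPM in replicate 1, against 1.83, 1.90 and 1.94 CPM in the others, and that library was also lowest in Hoxd10 and Hoxd11. Hoxa4 had 2.09 CPM in replicate 2, against 1.27, 1.11 and 1.26 CPM in the others. Chance alone marks about 1 in 20 such groups.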

How the results depend on the processing

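Among the called transcripts, no alternative reversed a direction. The count of Hox transcripts called at 18 h, 1, was 0 with limma-voom, with a GC offset, with library total as a covariate, and with both libraries lowest in Hoxd10 and Hoxd11 left out, an alternative chosen after seeing the data. At 36 h the count of 2 was 1 with limma-voom, the GC offset, the replicate block with the GC offset, and both low libraries left out, and 0 with library total as a covariate. For the mean effect the count of 3 was 2 with both low libraries left out and 0 with the total as a covariate, and with the GC offset it was 3 with Hoxb3os ENSMUST00000147410 in place of Hoxb3. Leaving out 1 library at a time gave 0 to 1 at 18 h, 0 to 1 at 24 h, 0 to 2 at 36 h and 2 to 4 for the mean effect. Hoxa9 lost its call at 18 h without vehicle 18 h replicate 1 or 3, any camptothecin 18 h library, or camptothecin 24 h replicate 3 (adjusted p between 0.0515 and 0.163), and at 36 h without vehicle 36 h replicate 2 or 3 or camptothecin 36 h replicate 1 (0.0684 to 0.0915). It passed at 24 h without vehicle 36 h replicate 4 (-1.04, adjusted p = 0.0378). Its mean effect kept its call in each of these except with the total as a covariate (-0.49). The Hoxb3 mean effect lost its call with the GC offset (0.50), with the total as a covariate (0.49), with both low libraries left out (0.63) and without any of 7 single libraries (lowest 0.56). The cause of these losses was not tested. With the total as a covariate no transcript of the whole table passed at 18, 24 or 36 h or in the mean effect. For most other settings the count over all transcripts is not given here. A loss particular to Hox transcripts therefore cannot be told apart from a loss over the whole table.

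Over the whole table at 18 h, 59 transcripts were called higher and 235 lower, and 10 and 20 with the GC offset. Between same-numbered samples of the arms, correlations of deviations lay between -0.210 and 0.226. Between samples of different number they lay between -0.216 and 0.313. With so few libraries per group, these values cannot decide whether the numbers pair samples. With the replicate block the count was 1 at 18 h, 2 at 36 h and 4 for the mean effect, where Hoxb3os ENSMUST00000147410 joined. Depth limits the low members: Hoxd4, Hoxc11 and a transcript each of Hoxa7 and Hoxa10 had libraries with 0 counts.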
